A study of Mus musculus with 8 samples.

Results

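The 8 growth factor receptor tyrosine kinases Fgfr1, Fgfr2, Fgfr3, Fgfr4, Met, Egfr, Igf1r and Insr were followed across 8 RNA-seq libraries of mouse muscle stem cells (satellite cells). They were taken by symbol from a table of 24328 genes, as the receptors for fibroblast growth factors, hepatocyte growth factor, epidermal growth factor, insulin-like growth factors and insulin. The choice goes by symbol and uses no expression threshold, but was made with earlier results of these data known. Every library came from skeletal muscle of C57BL/6 mice aged 2 months, and the sort kept Vcam+ cells without CD31, CD45 or Sca-1. Each of the 4 groups had 2 libraries. The PFA-perfused group (genotype Pax7-nGFP) was fixed by perfusion with paraformaldehyde before the cells were freed from the muscle. The PBS-perfused group (also Pax7-nGFP) was perfused with buffer and left unfixed. The unperfused group and the injury-activated group were wild type and unfixed, and the latter was collected 2.5 days after an injury whose agent the labels do not give. Genotype therefore cannot be told apart from perfusion, nor the RNA kit (one for fixed cells, another for unfixed cells) from fixation. The design text names 2 sequencers and the sample labels 1, so a difference between sequencers was not tested. Nothing in the labels ties the paired libraries to separate animals. The p-values therefore reflect no more than the scatter among these 8 libraries, and that scatter may be technical.

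Receptor tyrosine kinases sit in the plasma membrane, pair up or change shape when a ligand binds, and phosphorylate themselves and adaptor proteins, which pass the signal to the Ras, Raf, MEK and ERK kinases and to PI3 kinase and Akt. In satellite cells, fibroblast growth factors and hepatocyte growth factor are known for driving entry into the cell cycle, Met being the hepatocyte growth factor receptor and a classical marker of these cells. Insulin-like growth factor signalling through Igf1r is known for promoting growth and differentiation of muscle cells, and Fgfr1 and Fgfr4 are the fibroblast growth factor receptors best known in the muscle lineage.

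Levels are FPKM, in which fragment numbers are divided by the length of the transcript and by the library total, so they may be compared between genes. The table holds no counts and the depth is unknown. Summed FPKM lay between 461454 and 582336 per library. All 10 listed satellite cell markers were above 0 in each group, and Pax7 measured 328 and 567 FPKM in PFA-perfused libraries, 48.3 and 79.6 in PBS-perfused, 19.8 and 20.4 in unperfused and 4.59 and 4.40 in injury-activated. Not all 10 followed Pax7, with 4 higher and 5 lower in unperfused than PFA-perfused cells. Marker lists of other cell types differed in level by group. The summed level of 12 endothelial markers was 68.5 to 79.2 FPKM in PFA-perfused, 171 to 261 in PBS-perfused, 35.7 to 49.9 in unperfused and 10.1 to 10.7 in injury-activated libraries, with none of the 12 at 0 in both libraries of a group. The summed level of 11 fibro-adipogenic markers was 736 to 1224, 665 to 737, 880 to 1108 and 118 to 146 FPKM in the same order. Gene by gene these markers went another way than their sum. Of the 10 tested, 7 were higher and 1 lower in PBS-perfused than PFA-perfused cells (median log2 difference 2.14). Of all tested genes 17.8% were higher and 46.2% lower there. In injury-activated against unperfused cells 5 were higher and 3 lower (median 0.62), near the 40.8% higher and 29.3% lower of all genes. The summed level of 10 proliferation markers was 33.1 to 41.2, 28.1 to 31.9, 14.9 to 31.3 and 1001 to 1072 FPKM. That of 10 mural markers was 741 to 897, 382 to 581, 261 to 299 and 87.7 to 106 FPKM. For 8 glial markers it was 28.1 to 34.7, 26.9 to 28.7, 5.28 to 6.94 and 10.1 to 10.6 FPKM. The ribosomal RNA precursor Rn45s took 9.80% and 19.4% of the PFA-perfused libraries, 0.893% and 6.64% of PBS-perfused, and at most 0.363% of each of the rest. The part of these differences in the receptor results was not tested.

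For orientation in sequence, the 250 bases before the RefSeq transcription start (build GRCm38.p6, plus strand in each case) are shown for Met, Igf1r and Fgfr4. Their highest groups were injury-activated, unperfused and PFA-perfused cells respectively. On average Fgfr3 was also highest in unperfused cells and Insr in PFA-perfused cells. RefSeq promoter entries were matched for 6 of the 8 receptors, not for Fgfr1 or Insr. Capitals mark matches to any of 5 motifs searched on both strands, chosen with the expression values known: AP-1 (TGANTCA), CRE (TGACGTCA), E-box (CAGCTG), FOXO (GTAAACA) and GC box (GGGCGG), and no 2 matches overlap in these 3 windows. The Met window spans chr6:17463707-17463956, that of Igf1r chr7:67952007-67952256 and that of Fgfr4 chr13:55152568-55152817.
Met: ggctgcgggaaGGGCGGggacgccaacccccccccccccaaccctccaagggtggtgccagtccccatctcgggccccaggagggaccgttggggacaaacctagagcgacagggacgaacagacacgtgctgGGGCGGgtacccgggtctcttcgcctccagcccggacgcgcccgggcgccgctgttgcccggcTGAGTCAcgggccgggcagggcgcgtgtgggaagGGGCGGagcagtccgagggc
Igf1r: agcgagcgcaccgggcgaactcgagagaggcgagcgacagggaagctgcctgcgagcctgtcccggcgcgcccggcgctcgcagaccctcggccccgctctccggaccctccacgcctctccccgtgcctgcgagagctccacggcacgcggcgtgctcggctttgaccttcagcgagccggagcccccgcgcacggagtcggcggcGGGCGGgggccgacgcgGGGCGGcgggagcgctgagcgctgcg
Fgfr4: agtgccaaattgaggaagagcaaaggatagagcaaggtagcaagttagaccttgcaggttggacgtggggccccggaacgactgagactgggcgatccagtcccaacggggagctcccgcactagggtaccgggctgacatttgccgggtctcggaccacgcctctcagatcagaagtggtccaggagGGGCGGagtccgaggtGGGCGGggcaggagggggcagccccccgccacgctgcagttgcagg
The Met window held 1 AP-1 match, whose left end lies 54 bases before the start, and 3 GC boxes. Those of Igf1r and Fgfr4 held 2 GC boxes each and none of the other 4 motifs. Of the 2 Fgfr3 windows, not shown, the first held 1 E-box and 3 GC boxes and the second 2 GC boxes. Of all 32851 promoter windows of this length, 6.75% held the AP-1 motif, 32.7% the GC box, 13.0% the E-box, 3.17% the FOXO motif and 1.55% the CRE. These matches describe letters in the windows only.

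All 8 receptors passed the filter on low values (1 FPKM or more in 2 libraries or more). The receptor with the highest level changed from group to group. Fgfr4 ranked first and Fgfr1 second among the 8 in both PFA-perfused libraries. In all 4 PBS-perfused and unperfused libraries Fgfr1 ranked first. In both injury-activated libraries Met ranked first and Egfr second, with Fgfr1 in place 4. Fgfr2 ranked last in 7 of the 8 libraries, and its level never passed 3.24 FPKM.

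**Figure D1:**
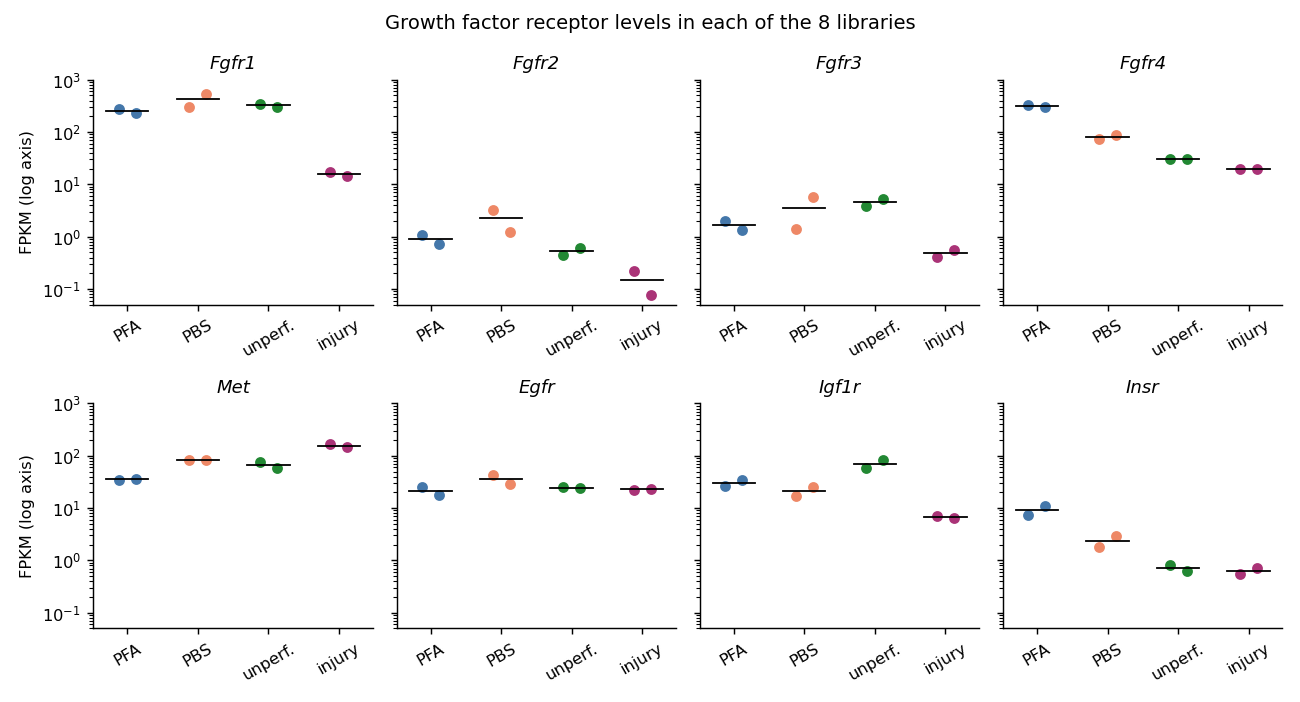
FPKM (log axis) of each receptor in each of the 8 libraries, one panel per receptor, with points for libraries, colours for the 4 groups and a bar at each group's mean. Fgfr4 and Insr are highest in the PFA-perfused libraries, Met is highest in the injury-activated libraries, and Fgfr1 falls to 17.0 and 14.8 FPKM there.

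Group means of log2(FPKM + 1) were compared with limma in 1 model of all 8 libraries, and a gene counts as changed at a Benjamini-Hochberg adjusted p under 0.05 over 12515 genes. Because a pseudocount of 1 is added, these differences understate the change of genes near or under 1 FPKM. The receptors moved in both directions in every comparison, and their share of calls lay near that of all genes in most. From PFA-perfused to PBS-perfused cells 3 receptors were higher (Fgfr2, Met and Egfr) and 2 lower (Fgfr4 and Insr), 5 of 8 against 64.0% of all tested genes (17.8% higher and 46.2% lower). From PFA-perfused to unperfused cells 3 were higher (Fgfr3, Met and Igf1r) and 2 lower (Fgfr4 and Insr), against 73.6% of all genes called (17.4% higher and 56.3% lower). Between unperfused and PBS-perfused cells Igf1r was higher and Fgfr2, Fgfr4 and Insr were lower in unperfused cells, against 49.6% called (13.1% higher and 36.5% lower). In injury-activated cells Met was the 1 receptor called higher, whichever of the other groups they were set against. Against unperfused cells 4 receptors were lower (Fgfr1, Fgfr3, Fgfr4 and Igf1r), against 70.0% of all genes called (40.8% higher and 29.3% lower). Against PFA-perfused cells 5 were lower (Fgfr1, Fgfr2, Fgfr4, Igf1r and Insr), against 73.5% called (26.1% higher and 47.3% lower). Against PBS-perfused cells 6 were lower, all but Met and Egfr, against 73.2% called (34.4% higher and 38.8% lower).

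The median difference of the 8 receptors was 0.65 from PFA-perfused to PBS-perfused cells, where the median of all tested genes was -0.50. From PFA-perfused to unperfused cells it was 0.30 against -0.81, and between unperfused and PBS-perfused cells -0.41 against -0.36. For injury-activated cells it was -0.52 against 0.17 relative to unperfused, -1.43 against -0.48 relative to PFA-perfused, and -1.43 against -0.11 relative to PBS-perfused. The median of all genes thus stood away from 0, and scaling by a trimmed mean of ratios moved the split of all calls from 2225 higher and 5783 lower to 3442 and 3407 between PBS-perfused and PFA-perfused cells. In this setting the split went from 2173 and 7043 to 4147 and 4411 between unperfused and PFA-perfused cells, from 1643 and 4562 to 2805 and 3231 between unperfused and PBS-perfused cells, and from 5100 and 3663 to 4005 and 5064 between injury-activated and unperfused cells. Where libraries of a receptor are said not to overlap between groups, the same held for most genes: for 79.9% of all tested genes between PBS-perfused and PFA-perfused cells, 85.6% between unperfused and PFA-perfused cells and 72.1% between unperfused and PBS-perfused cells. It held for 89.2%, 91.3% and 89.4% between injury-activated cells and unperfused, PFA-perfused and PBS-perfused cells. Of the 32 receptor differences called, none changed sign under any of the 17 alternatives, and 23 were also called in every alternative that tested them.

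**Figure D2:**
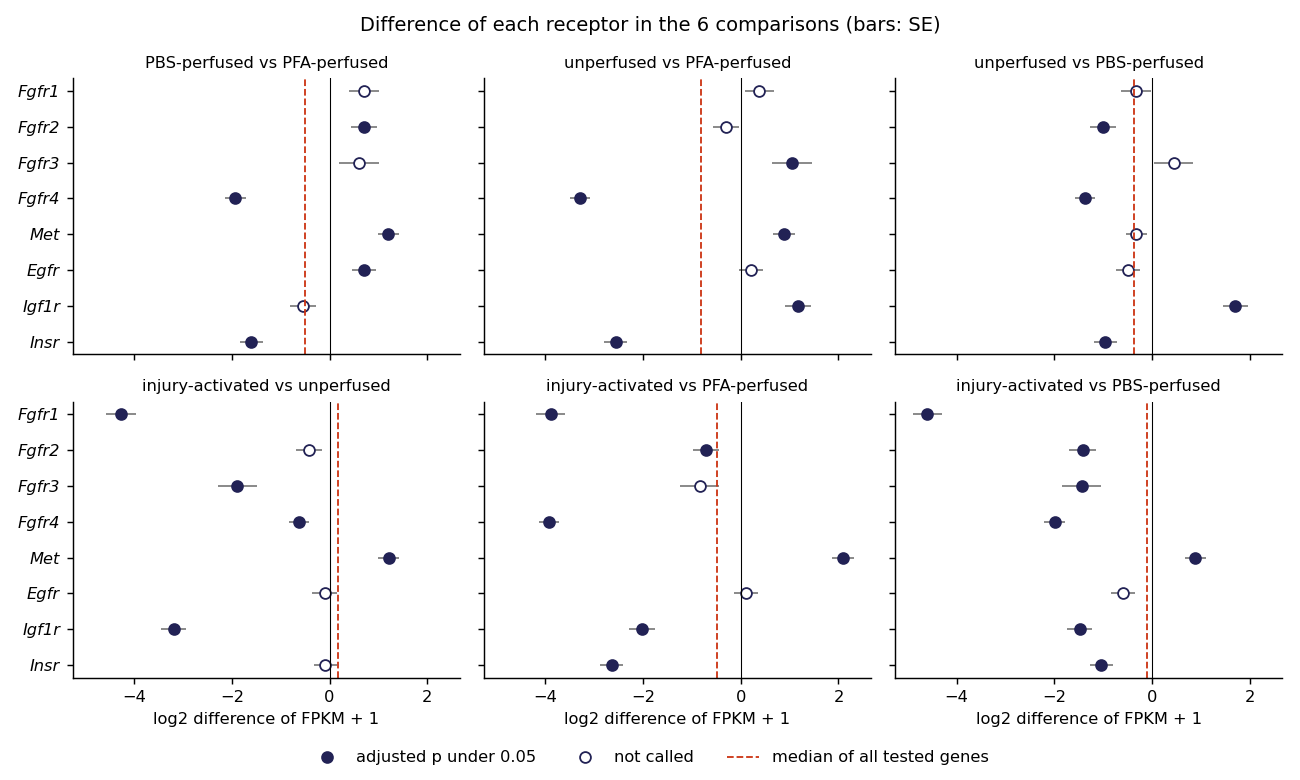
Log2 difference of FPKM + 1 (x axis) of the 8 receptors in each of the 6 comparisons, with bars for the SE, filled points for an adjusted p under 0.05 and a dashed line at the median of all tested genes. Fgfr1 lies far left, Igf1r and Fgfr4 left and Met right of 0 in the 3 injury panels, while Fgfr4 and Insr lie left in both comparisons with PFA-perfused cells in the top row.

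Fgfr1, the main fibroblast growth factor receptor of muscle precursor cells, was abundant in every uninjured group and low after injury. It measured 274 and 228 FPKM in PFA-perfused libraries, 306 and 544 in PBS-perfused, 347 and 305 in unperfused, and 17.0 and 14.8 in injury-activated. The 2 injury-activated libraries were far below the 6 others, which overlapped between PBS-perfused and unperfused. The level fell by 4.27 ± 0.30 (log2, SE) from unperfused to injury-activated cells (limma adjusted p = 3.4e-06), and was lower in injury-activated cells by a similar size against PFA-perfused (-3.89, limma adjusted p = 4.5e-06) and PBS-perfused cells (-4.60, limma adjusted p = 2.1e-06). In bulk samples, fewer cells of a type and less RNA per cell cannot be told apart. The 3 uninjured groups did not pass the test against each other, PBS-perfused minus PFA-perfused being 0.70 ± 0.30 (limma adjusted p = 0.068). That difference became 1.12 (limma adjusted p = 0.0095) without PBS-perfused replicate 1 and 1.26 to 1.34 with the 2 trimmed mean scalings, which also called unperfused above PFA-perfused cells, at 1.38 to 1.58.

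Fgfr4, a fibroblast growth factor receptor largely restricted in muscle to the myogenic lineage, stepped down through the 4 groups. Its level was 324 and 296 FPKM in PFA-perfused libraries, 74.2 and 88.1 in PBS-perfused, 30.5 and 31.0 in unperfused, and 19.4 and 19.6 in injury-activated. No library of one group overlapped with those of another, and each step down the order passed the test. PBS-perfused cells were lower than PFA-perfused cells by a log2 difference of -1.93 ± 0.21 (limma adjusted p = 8.9e-05), unperfused lower than PBS-perfused by -1.36 ± 0.21 (limma adjusted p = 6.1e-04), and injury-activated lower than unperfused by -0.63 ± 0.21 (limma adjusted p = 0.021). The last step missed the threshold without injury-activated replicate 1 (-0.62, limma adjusted p = 0.14) or replicate 2 (-0.64, limma adjusted p = 0.13), and was larger, at -1.25 and -1.03, with the 2 trimmed mean scalings. From PFA-perfused to unperfused cells the fall was -3.29 (limma adjusted p = 2.0e-06), or -2.30 and -2.10 with those scalings. The step from PBS-perfused to unperfused cells was -0.93 and -0.81 with them. Pax7 levels and the summed level of 10 mural markers fell in the same order of groups, and the Rn45s share was highest in PFA-perfused libraries. Other satellite cell markers did not all follow: of the 10 listed, 4 were higher and 5 lower in unperfused than PFA-perfused cells. Sdc4, one of these markers, averaged 329 FPKM in PFA-perfused and 34234 in unperfused cells. The part of these differences in the Fgfr4 level was not tested.

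Since a ratio within a library does not depend on scaling between libraries, Fgfr1 was also set against Fgfr4 in each. The ratio of Fgfr1 to Fgfr4 was 0.845 and 0.769 in the PFA-perfused libraries, 4.12 and 6.18 in PBS-perfused, 11.4 and 9.82 in unperfused, and 0.880 and 0.753 in injury-activated. PFA-perfused and injury-activated cells overlapped near equal levels, and the PBS-perfused and unperfused libraries all lay above them. Fgfr4 made up 53.9% and 56.3% of the summed FPKM of Fgfr1 to Fgfr4 in PFA-perfused libraries and 52.3% and 56.0% in injury-activated libraries, against 7.99% and 9.08% in unperfused ones. The similar shares belonged to different totals, 602 and 526 FPKM for the 4 receptors in PFA-perfused libraries and 37.0 and 35.0 in injury-activated libraries. No test was run on these ratios and shares, which are given as a description.

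**Figure D3:**
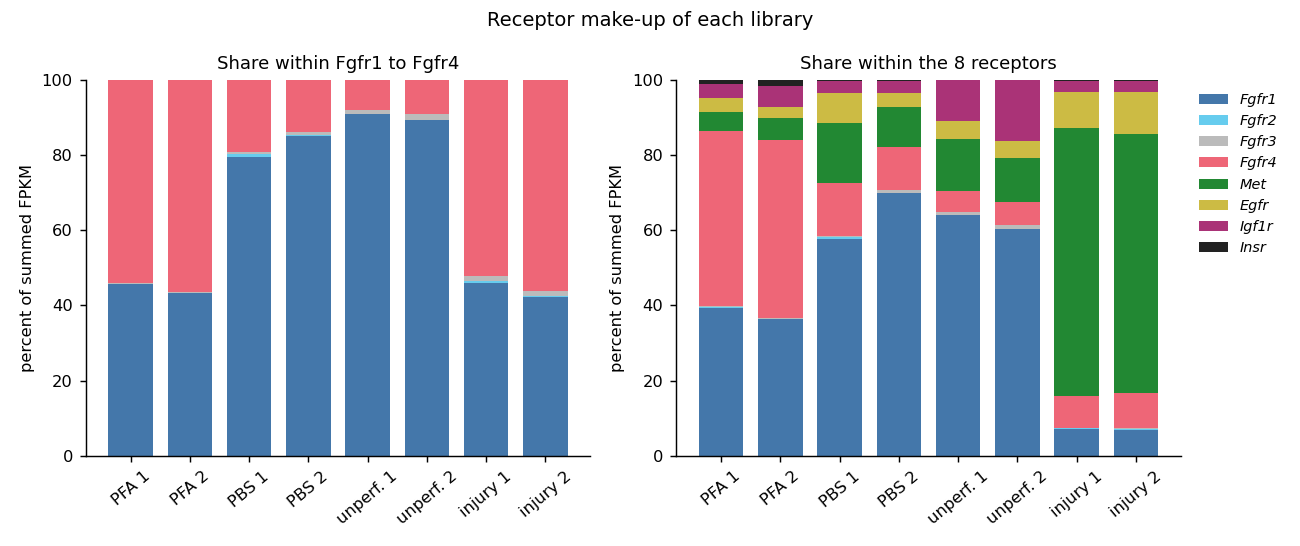
Stacked bars of each receptor's percent of summed FPKM in each library, within Fgfr1 to Fgfr4 (left) and within all 8 receptors (right). Fgfr4 takes over 50% of the left bars in PFA-perfused and injury-activated libraries, and Met takes 71.3% and 69.0% of the right bars in injury-activated ones.

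Fgfr2 and Fgfr3, the remaining kinase-bearing fibroblast growth factor receptors, were scarce. Fgfr2 measured 1.06 and 0.712 FPKM in PFA-perfused, 3.24 and 1.23 in PBS-perfused, 0.447 and 0.618 in unperfused, and 0.218 and 0.078 in injury-activated libraries. The PBS-perfused libraries were the highest and differed most between themselves, and no groups overlapped. Fgfr2 was higher in PBS-perfused than PFA-perfused cells by 0.71 ± 0.27 (limma adjusted p = 0.042), but 11 of the 16 alternatives that tested it gave an adjusted p over the threshold. They include each library left out except PBS-perfused replicate 2, and without PBS-perfused replicate 1 the difference was 0.25 while without replicate 2 it was 1.17. Its difference between unperfused and PBS-perfused cells was -1.01 ± 0.27 (limma adjusted p = 0.012), which was lost without either unperfused library (-0.93 and -1.09), with no filter and after quantile normalization (-0.73), and was -0.54 without PBS-perfused replicate 1. Injury-activated cells were below PBS-perfused cells by -1.42 (limma adjusted p = 0.0011), a call kept in each alternative that tested it, at -3.14 with a pseudocount of 0.1. Against PFA-perfused cells the difference of -0.71 (limma adjusted p = 0.037) was lost without either library of the PFA-perfused, unperfused or injury-activated groups, at -0.58 to -0.84, with the 2 trimmed mean scalings (-0.52 and -0.42), with no filter and after quantile normalization (-0.23, limma adjusted p = 0.50), 10 of the 15 alternatives that tested it. With a pseudocount of 0.1 it was -2.03. Injury-activated minus unperfused was -0.42 (limma adjusted p = 0.19), and this same difference was called without either PBS-perfused library, as was -1.40 with a pseudocount of 0.1.

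Fgfr3 measured 1.99 and 1.35 FPKM in PFA-perfused, 1.40 and 5.73 in PBS-perfused, 3.83 and 5.21 in unperfused, and 0.410 and 0.555 in injury-activated libraries. The injury-activated libraries were the lowest, and the 2 PBS-perfused libraries lay far apart, one between the 2 PFA-perfused libraries and the other above all 7 others. The level fell by 1.89 ± 0.40 from unperfused to injury-activated cells (limma adjusted p = 0.0023), or by 2.98 with a pseudocount of 0.1. Injury-activated cells were below PBS-perfused cells by -1.44 (limma adjusted p = 0.0096), which became -2.18 and -0.70 without PBS-perfused replicate 1 or 2 and was not called with no filter on low values (limma adjusted p = 0.054). Unperfused cells were above PFA-perfused cells by 1.05 ± 0.40 (limma adjusted p = 0.040), a call lost in 6 of 17 alternatives. These include leaving out any 1 of those 4 libraries, at 0.86 to 1.23. Between PBS-perfused and PFA-perfused cells the difference of 0.60 did not pass (limma adjusted p = 0.22), was called at 1.34 without PBS-perfused replicate 1 and turned to -0.14 without replicate 2. Unperfused minus PBS-perfused was 0.45 (limma adjusted p = 0.38), and -0.30 and 1.19 without those libraries, the latter called. Injury-activated minus PFA-perfused was -0.84 (limma adjusted p = 0.086) and ran from -1.59 with a pseudocount of 0.1 to -0.08 after quantile normalization (limma adjusted p = 0.88). It was called in 5 alternatives: that pseudocount, removal of Rn45s and Malat1, only those 2 groups fitted, and each PBS-perfused library left out.

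Met, the receptor for hepatocyte growth factor, was the only one of the 8 whose level was highest after injury. It measured 35.1 and 36.4 FPKM in PFA-perfused, 84.0 and 83.1 in PBS-perfused, 75.5 and 58.8 in unperfused, and 167 and 145 in injury-activated libraries. The PFA-perfused libraries were the lowest, the injury-activated the highest, and no groups overlapped. From unperfused to injury-activated cells it rose by 1.21 ± 0.22 (limma adjusted p = 9.0e-04), which was 0.58 and 0.81 with the 2 trimmed mean scalings and 0.73 after quantile normalization, all still called. PBS-perfused cells were above PFA-perfused cells by 1.20 ± 0.22 (limma adjusted p = 0.0013), or 1.75 and 1.82 with the trimmed mean scalings. Markers of several other cell types were also higher in PBS-perfused than PFA-perfused cells, and their part in this difference was not tested. Unperfused cells were above PFA-perfused cells by 0.88 ± 0.22 (limma adjusted p = 0.0053), or 1.87 and 2.06 with the trimmed mean scalings. Injury-activated cells were above PBS-perfused cells by 0.89 (limma adjusted p = 0.0051), a call lost without injury-activated replicate 1 (0.79, limma adjusted p = 0.067). PBS-perfused and unperfused cells, next to each other in the order, did not pass (-0.32, limma adjusted p = 0.25), and the sign of that difference turned with both trimmed mean scalings, at 0.12 and 0.24.

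Set against Fgfr1 within each library, Met stood at 0.128 and 0.160 of the Fgfr1 level in PFA-perfused, 0.275 and 0.153 in PBS-perfused, 0.218 and 0.193 in unperfused, and 9.78 and 9.82 times it in injury-activated libraries. In this ratio the PBS-perfused libraries overlapped with both other uninjured groups, while the PFA-perfused libraries lay below the unperfused ones. Both injury-activated libraries lay far above all of these. Beside the Met level, all 10 proliferation markers and 6 of 8 tested myofibre markers were also higher in injury-activated than in unperfused cells. So were 6 of 7 tenocyte and 5 of 8 haematopoietic markers, while 7 of 10 satellite cell markers were lower. Over all tested genes 40.8% were higher and 29.3% lower. Of 10 mural markers 6 were lower and of 12 endothelial markers 4 were lower, with none higher in either list. Of 10 tested fibro-adipogenic markers 5 were higher and 3 lower, and of 5 tested glial markers 2 and 2. The summed level of the 12 listed myofibre markers was 49.0 to 49.9 FPKM in unperfused and 265 to 306 in injury-activated libraries. That of the 7 tenocyte markers was 12.6 to 20.9 and 76.4 to 107 FPKM, and that of the 11 haematopoietic markers was 65.1 to 71.5 FPKM in injury-activated libraries, above both unperfused ones, with Adgre1 at 0 in both unperfused libraries. The part of all these markers in the Met level and in the lower levels of other receptors was not tested.

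Egfr, the receptor for epidermal growth factor and its relatives, varied least between group means of the 8. It measured 24.8 and 17.9 FPKM in PFA-perfused, 42.9 and 28.6 in PBS-perfused, 25.2 and 23.9 in unperfused, and 22.6 and 23.2 in injury-activated libraries. The 2 PBS-perfused libraries were the highest, and the others lay between 17.9 and 25.2. PBS-perfused exceeded PFA-perfused cells by 0.71 ± 0.25 (limma adjusted p = 0.033), the 1 Egfr difference that passed. It was lost without PFA-perfused replicate 2 (0.48), PBS-perfused replicate 1 (0.42) or either injury-activated library (0.71, limma adjusted p = 0.062), with no filter and with only those 2 groups fitted, and was 1.24 and 1.31 with the trimmed mean scalings. Markers of several other cell types moved with Egfr, Fgfr2 and Met here. In PBS-perfused against PFA-perfused cells 11 of 12 tested endothelial, 6 of 7 tenocyte, 7 of 10 fibro-adipogenic and 5 of 8 haematopoietic markers were higher. Over all tested genes 17.8% were higher and 46.2% lower. Of 10 mural markers 2 were higher and 3 lower, of 5 tested glial markers 1 was lower, and of 8 tested myofibre markers none was called. The part of these markers was not tested. Between injury-activated and unperfused cells Egfr differed by -0.10 ± 0.25 (limma adjusted p = 0.74), and by -0.71 (limma adjusted p = 0.016) with trimmed mean scaling over genes of at least 1 FPKM. Without PBS-perfused replicate 2, Egfr was called lower in unperfused (-0.78) and injury-activated (-0.88) than in PBS-perfused cells, where all libraries gave -0.50 and -0.59. Unperfused minus PFA-perfused was 0.21 (limma adjusted p = 0.47), but was called at 1.18 and 1.36 with the trimmed mean scalings and at 0.84 after quantile normalization. Injury-activated minus PFA-perfused was 0.11 (limma adjusted p = 0.70), called at 0.87 (limma adjusted p = 0.0072) with trimmed mean scaling over genes above 0, and turned to -0.11 without PFA-perfused replicate 2 and to -0.16 without Rn45s and Malat1. Injury-activated minus PBS-perfused was also called with trimmed mean scaling over genes of at least 1 FPKM (-0.77), quantile normalization (-0.74) and removal of Rn45s and Malat1 (-0.78).

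Igf1r, the receptor for the insulin-like growth factors, was highest in unperfused cells and lowest after injury. Its level was 26.8 and 34.0 FPKM in PFA-perfused, 16.7 and 25.0 in PBS-perfused, 58.7 and 81.3 in unperfused, and 6.91 and 6.40 in injury-activated libraries. Both unperfused libraries lay above all others, both injury-activated libraries below, and no groups overlapped. From unperfused to injury-activated cells the level fell by 3.19 ± 0.26 (limma adjusted p = 7.7e-06). Unperfused cells exceeded PBS-perfused cells by 1.71 ± 0.26 (limma adjusted p = 7.0e-04) and PFA-perfused cells by 1.17 ± 0.26 (limma adjusted p = 0.0029), the latter 2.15 and 2.34 with the trimmed mean scalings. Injury-activated cells were also below PFA-perfused (-2.03, limma adjusted p = 1.0e-04, or -1.66 and -1.27 with those scalings) and PBS-perfused cells (-1.49, limma adjusted p = 7.5e-04). PBS-perfused and PFA-perfused cells did not pass (-0.54, limma adjusted p = 0.10), and were called at -0.82 without PBS-perfused replicate 2.

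Insr, the insulin receptor and closest relative of Igf1r, followed another order. It measured 7.51 and 11.1 FPKM in PFA-perfused, 1.80 and 2.97 in PBS-perfused, 0.803 and 0.636 in unperfused, and 0.542 and 0.703 in injury-activated libraries. The PFA-perfused libraries stood above all others, and unperfused and injury-activated libraries overlapped at the low end. PBS-perfused cells were lower than PFA-perfused cells by a difference of -1.61 ± 0.23 (limma adjusted p = 3.9e-04), or -1.12 and -1.04 with the trimmed mean scalings. Unperfused cells were lower than PFA-perfused cells by -2.56 (limma adjusted p = 1.3e-05) and lower than PBS-perfused cells by -0.96 (limma adjusted p = 0.0083). The latter was lost after quantile normalization (-0.65, limma adjusted p = 0.072) and without unperfused replicate 2 (-0.89, limma adjusted p = 0.060), and was -1.56 with a pseudocount of 0.1. Injury-activated cells were lower than PFA-perfused (-2.64, limma adjusted p = 9.3e-06) and PBS-perfused cells (-1.04, limma adjusted p = 0.0030, or -1.75 with a pseudocount of 0.1), and differed from unperfused cells by -0.08 ± 0.23 (limma adjusted p = 0.77).

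The ratio of Igf1r to Insr was 3.56 and 3.07 in PFA-perfused, 9.28 and 8.42 in PBS-perfused, 73.0 and 128 in unperfused, and 12.8 and 9.10 in injury-activated libraries. Igf1r was the more abundant in all 8 libraries, by most in the unperfused ones, and PBS-perfused and injury-activated libraries overlapped. Insr was under 1 FPKM in both the unperfused and the injury-activated libraries, while Igf1r averaged 70.0 ± 16.0 FPKM (SD, n = 2) in the former and 6.66 ± 0.36 in the latter.

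Genes around the receptors were taken from 7 lists of 120 genes, of which 99 were tested. Over these lists 32 genes were higher and 29 lower in PBS-perfused than PFA-perfused cells, 32 and 43 in unperfused than PFA-perfused, 23 and 37 in unperfused than PBS-perfused, and 22 and 49 in injury-activated than unperfused cells. Relative to PFA-perfused cells, 21 were higher and 48 lower in injury-activated cells, and relative to PBS-perfused cells 21 and 57. For comparison with each list, 17.8% of all tested genes were higher (46.2% lower) in PBS-perfused than PFA-perfused cells, 17.4% (56.3% lower) in unperfused than PFA-perfused cells and 13.1% (36.5% lower) in unperfused than PBS-perfused cells. In injury-activated cells 40.8% were higher (29.3% lower) relative to unperfused, 26.1% (47.3% lower) relative to PFA-perfused and 34.4% (38.8% lower) relative to PBS-perfused cells. The medians of the 99 ran from -0.81 (injury-activated against PBS-perfused) to -0.06 (PBS-perfused against PFA-perfused).

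**Figure D4:**
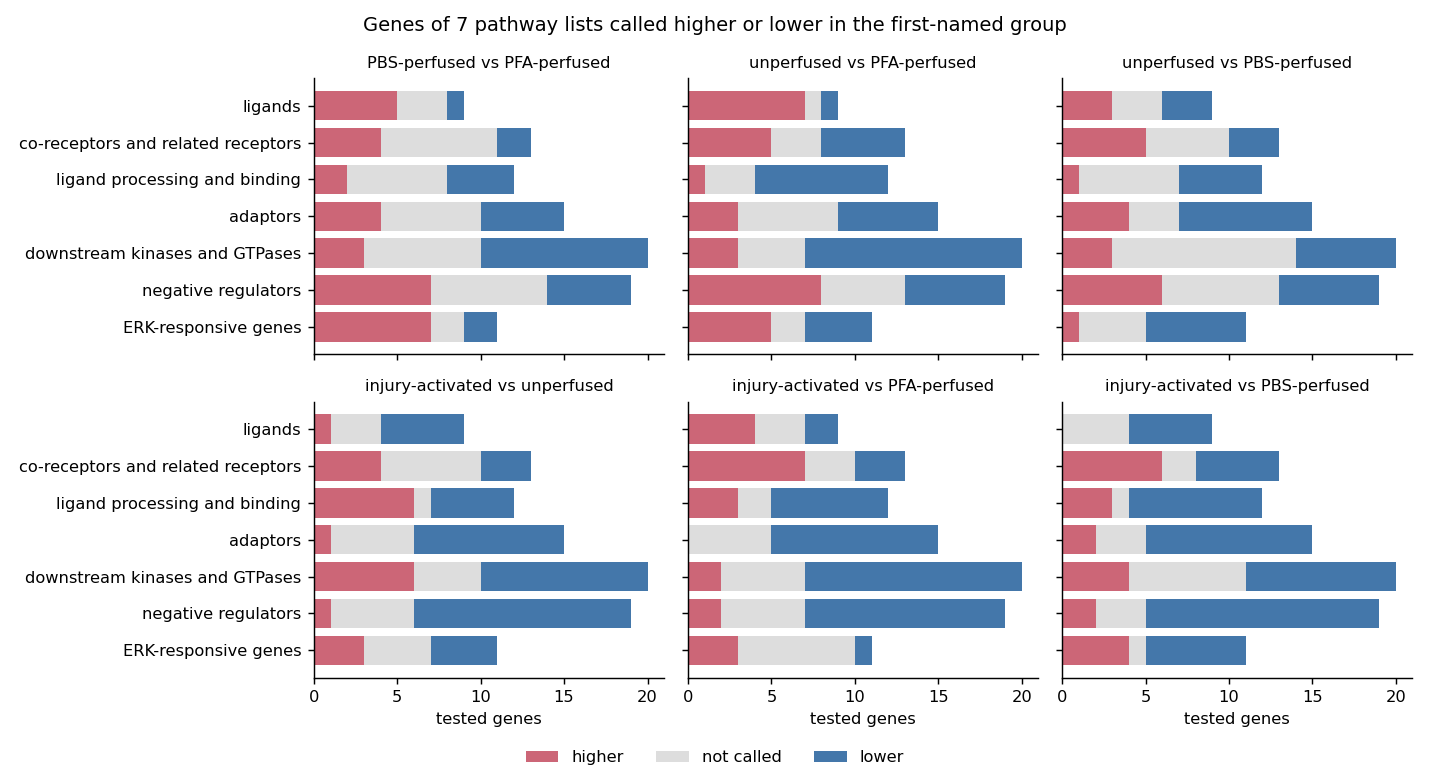
Number of tested genes (x axis) of each of the 7 lists called higher, called lower or not called in the first-named group, for the 6 comparisons. Among negative regulators 13 of 19 are lower in injury-activated than unperfused cells, and among ERK-responsive genes 7 of 11 are higher in PBS-perfused than PFA-perfused cells.

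Of 18 ligands, 9 were tested. From PFA-perfused to unperfused cells 7 rose and 1 fell (median 1.03), where 17.4% of all genes rose and 56.3% fell. From unperfused to injury-activated cells 1 rose and 5 fell (median -0.88), where 40.8% of all genes rose and 29.3% fell. Hbegf, a ligand of Egfr released from the membrane, measured 0.950 and 0.857 FPKM in PFA-perfused, 69.9 and 63.0 in PBS-perfused, 37.3 and 37.6 in unperfused, and 7.28 and 6.84 in injury-activated libraries. Its level was thus near 1 FPKM in fixed cells and far above in the 2 other uninjured groups, by 5.15 ± 0.18 in PBS-perfused (limma adjusted p = 1.2e-06) and 4.34 ± 0.18 in unperfused cells. Igf1, a ligand of Igf1r, measured 12.8 and 7.06 FPKM in PFA-perfused, 9.01 and 5.22 in PBS-perfused, 29.5 and 41.1 in unperfused, and 0.768 and 1.09 in injury-activated libraries. As for its receptor, the unperfused libraries were highest and the injury-activated lowest, the fall between these being 4.22 ± 0.33. Hgf, the ligand of Met, stayed under 1 FPKM in every library, with 0.867 the highest, and Fgf6 was listed at 0 in both libraries of the PBS-perfused, unperfused and injury-activated groups.

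Co-receptors and related receptors gave 13 tested genes of 18, with 4 higher and 2 lower in PBS-perfused than PFA-perfused cells, 5 and 5 in unperfused than PFA-perfused cells, and 4 and 3 in injury-activated than unperfused cells. Sdc4 (syndecan 4), a heparan sulfate co-receptor for fibroblast growth factors, measured 420 and 239 FPKM in PFA-perfused, 2718 and 3099 in PBS-perfused, 28149 and 40318 in unperfused, and 927 and 908 in injury-activated libraries. The unperfused libraries stood above all others by a wide margin, 6.73 ± 0.40 above PFA-perfused and 5.20 ± 0.40 above injury-activated cells. Cd44, a co-receptor of Met in some cells, was 4.33 ± 0.27 higher in injury-activated than PFA-perfused cells (233 against 10.7 FPKM on average), but its unperfused libraries, at 388 and 272 FPKM, lay above the injury-activated ones, at 237 and 229. Sdc2 was 2.44 ± 0.27 higher in injury-activated than PBS-perfused cells.

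Among genes that process or bind the ligands, 12 of 17 were tested, and from PFA-perfused to unperfused cells 1 rose and 8 fell (median -1.36), where 17.4% of all genes rose and 56.3% fell. Igfbp7, an insulin-like growth factor binding protein, measured 26.3 and 16.8 FPKM in PFA-perfused, 26.5 and 57.2 in PBS-perfused, 1.16 and 1.18 in unperfused, and 0.211 and 0.199 in injury-activated libraries. Igfbp4 fell from 39.9 and 40.1 FPKM in PFA-perfused to 0.138 and 0.199 in injury-activated libraries, and Igfbp6 was 2.50 ± 0.28 higher in PBS-perfused than PFA-perfused cells. Fgfbp1, a carrier of fibroblast growth factors, rose from 0.105 ± 0.011 FPKM in unperfused to 15.9 ± 6.39 in injury-activated cells (SD, n = 2).

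All 15 adaptors were tested. In injury-activated cells 1 was higher and 9 lower relative to unperfused, none higher and 10 lower relative to PFA-perfused, and 2 higher and 10 lower relative to PBS-perfused cells, where 29.3%, 47.3% and 38.8% of all genes were lower. Irs2, an adaptor of the insulin and insulin-like growth factor receptors, measured 23.7 and 24.8 FPKM in PFA-perfused, 37.4 and 98.3 in PBS-perfused, 27.0 and 36.5 in unperfused, and 1.21 and 1.34 in injury-activated libraries, the last group standing far below the rest. Irs1, its relative, measured 23.0 and 20.8, 4.16 and 4.22, 24.6 and 55.9, and 15.6 and 14.8 FPKM in the same order, and was lowest in the PBS-perfused libraries. Frs3, an adaptor of the fibroblast growth factor receptors, was at 6.51 ± 0.14 FPKM (SD, n = 2) in PFA-perfused and 0.0167 ± 0.024 in unperfused cells.

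**Figure D5:**
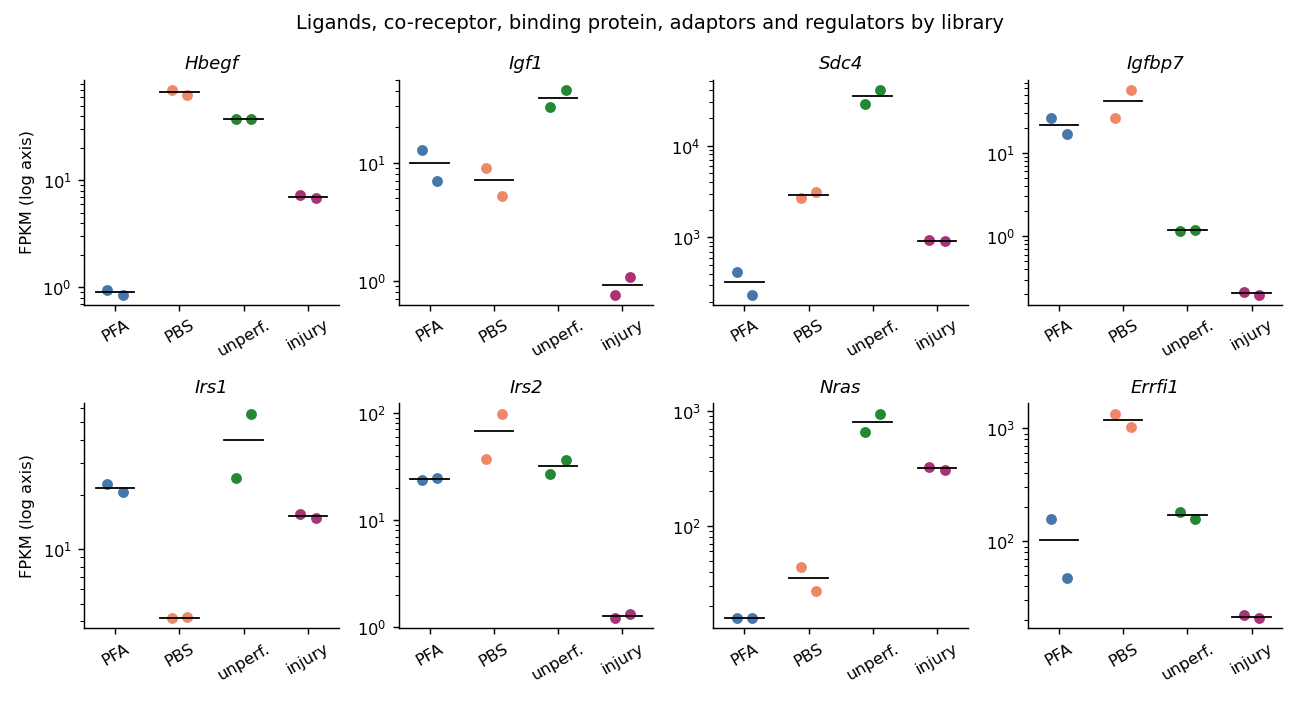
FPKM (log axis, own range per panel) of 8 pathway genes in each library, with points for libraries and bars for group means, shown with their values known. Hbegf is near 1 FPKM in PFA-perfused cells, Sdc4 and Nras are highest in unperfused cells, and Irs2 and Igfbp7 are lowest in injury-activated cells.

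Of the downstream kinases and GTPases 20 of 21 were tested, with 3 higher and 10 lower in PBS-perfused than PFA-perfused cells and 3 and 13 in unperfused than PFA-perfused cells. The lower shares are near those of all genes, 46.2% and 56.3%, as are the medians of -0.50 and -0.94 beside -0.50 and -0.81. Nras, one of the Ras GTPases, measured 15.8 and 15.9 FPKM in PFA-perfused, 43.7 and 27.3 in PBS-perfused, 654 and 945 in unperfused, and 324 and 308 in injury-activated libraries. It was among the few members of the list to rise from PFA-perfused to unperfused cells, by 5.55 ± 0.29. Braf, a Raf kinase, fell by 4.28 ± 0.32 from unperfused to injury-activated cells, and Map2k1, a MEK kinase, was lower in injury-activated than PBS-perfused cells by -3.72 ± 0.23. Pik3r2, a regulatory subunit of PI3 kinase, was lower in PBS-perfused than PFA-perfused cells (4.16 against 23.3 FPKM on average, log2 difference -2.27 ± 0.24).

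Negative regulators gave 19 tested genes of 20, with 7 higher and 5 lower in PBS-perfused than PFA-perfused cells and 8 and 6 in unperfused than PFA-perfused cells. In injury-activated cells 1 was higher and 13 lower than in unperfused cells (median -1.83, against 0.17 over all genes, of which 29.3% were lower). Errfi1, an inhibitor that binds the Egfr kinase domain, measured 157 and 47.3 FPKM in PFA-perfused, 1349 and 1038 in PBS-perfused, 182 and 156 in unperfused, and 22.3 and 20.8 in injury-activated libraries. The PBS-perfused libraries, those with the highest Egfr, were the highest for Errfi1 as well. Spry2, an inhibitor of signalling from fibroblast growth factor receptors, averaged 2150 ± 540 FPKM (SD, n = 2) in unperfused cells and 3.45 ± 1.13 in PFA-perfused cells, and Spry1 fell from 87.8 ± 19.5 in PFA-perfused to 1.09 ± 0.031 in injury-activated cells.

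All 11 ERK-responsive genes were tested. From PFA-perfused to PBS-perfused cells 7 rose and 2 fell (median 2.05, against -0.50 over all genes, of which 17.8% rose), and from PFA-perfused to unperfused cells 5 rose and 4 fell. Egr1, an immediate early transcription factor, measured 393 and 181 FPKM in PFA-perfused, 3170 and 3144 in PBS-perfused, 316 and 343 in unperfused, and 20.05 and 14.7 in injury-activated libraries. Fosl1, an AP-1 subunit, went from 0.0415 ± 0.021 FPKM (SD, n = 2) in PFA-perfused to 127 ± 36.8 in PBS-perfused cells, and averaged 21.7 ± 3.93 in unperfused cells. Relative to PBS-perfused cells, 4 were higher and 6 lower in injury-activated cells, and Egr1 fell by 7.44 ± 0.36.

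Among 24 other receptor tyrosine kinases, 18 were tested, which sets the 8 receptors beside their wider family. From PFA-perfused to PBS-perfused cells 8 of the 18 rose and 1 fell, against 17.8% and 46.2% of all genes, among them Flt1, a vascular endothelial growth factor receptor that is also one of the endothelial markers. Relative to unperfused cells, 3 rose and 5 fell in injury-activated cells, with Musk, the agrin-responsive kinase of the neuromuscular junction, which fell by 4.50 ± 0.39 from 1044 ± 254 FPKM (SD, n = 2). Relative to PFA-perfused cells, 5 rose and 9 fell after injury, with Ret at 115 ± 25.0 FPKM in PFA-perfused and 5.64 ± 1.73 in injury-activated cells. No difference between these receptors and the 8 was tested.

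The genes closest in pattern to each receptor were found as the 3 with the smallest root mean square difference of centred log2(FPKM + 1) over the 8 libraries. For Fgfr1 these were Prex1 (0.22), Pdzd2 (0.30) and Col4a2 (0.32), and for Fgfr4 Zfp692 (0.12), Mri1 (0.14) and Per3 (0.15). For Met they were Med22, Ak4 and Sgpl1 (0.15 to 0.17), and for Egfr Arl1, Nfyb and Ube2w (0.11 to 0.16). Igf1r lay closest to Arid3b, Cecr2 and Nf1 (0.19 to 0.20), of which Nf1 is a Ras inhibitor on the list of negative regulators. Insr lay closest to Erbb2 (0.14), a relative of Egfr that measured 7.16 and 10.3 FPKM in PFA-perfused, 2.27 and 3.34 in PBS-perfused, 0.777 and 0.819 in unperfused, and 0.924 and 0.834 in injury-activated libraries. The low receptors Fgfr2 and Fgfr3 lay closest to Rlf (0.11) and Snord83b (0.20). Among the 8 themselves the closest pairs were Fgfr2 with Egfr (0.37) and Fgfr4 with Insr (0.51), and the farthest was Fgfr1 with Met (2.47). The pseudocount of 1 flattens changes of genes near or under 1 FPKM, such as Fgfr2, so their likeness to more abundant genes is limited. Fgfr2 averaged 2.23 FPKM in PBS-perfused and 0.148 in injury-activated cells, a 15.1-fold difference, against 1.56-fold for Egfr.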

How the data were processed

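The values deposited by the authors, 24328 genes in 8 columns, carry no stated unit. The deposited values were taken as FPKM, since they hold decimals, their totals differ between libraries and this is a unit StringTie writes. According to the submitters' processing notes, STAR 2.5.3a, StringTie 1.3.3, R 3.4.1 and mm9 were used, without roles. Per the labels' protocols, polyA RNA was amplified with SMART-Seq v4. Use of strand is not given in the sources used here, so reads of overlapping genes cannot be told apart. The table has no counts, and depth is unknown.

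Here log2(FPKM + 1) of the 12515 genes with 1 FPKM or more in 2 libraries or more was fitted with limma 3.58.1 in R 4.3.3 (variance trend, 4 group means, no covariate, 6 contrasts), with Benjamini-Hochberg adjusted p-values, two-sided. Fixing, perfusion, genotype and RNA kit were not entered, being tied to the groups. The code was tested on simulated data, in which false calls ran above the nominal share, so calls near the threshold are the least certain. The receptors and lists were chosen with earlier results of these data known. Pathway genes were named by rule: per list and comparison, the called gene of largest change averaging 5 FPKM or more where it is higher and with libraries that do not overlap, and per receptor the 3 genes of nearest pattern. Hgf and Fgf6 were named outside it after their values were seen, as were the 5 motifs, the promoters shown and the 8 plotted pathway genes. There were 17 alternatives: the replicate block, only the 2 groups compared, no filter or 5 FPKM, a pseudocount of 0.1, 2 versions of trimmed mean scaling, quantile normalization, removal of Rn45s and Malat1, and each library left out. Trimmed mean scaling was first run over genes of at least 1 FPKM in both libraries. The version over genes above 0 was added after those results had been seen, because the first left the median of all genes away from 0, and both are given.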

Additional observations from a re-analysis of the deposited data

How the results depend on the processing

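Depth is unknown and 2 libraries a group limit the precision, so receptors with group means under 1 FPKM (Fgfr2 outside PBS-perfused cells, Fgfr3 after injury, Insr in unperfused and injury-activated cells) are the least certain. Fixation cannot be told apart from the RNA kit, nor genotype from perfusion, and PFA-perfused and unperfused cells differ in all of these. Of 806 values of receptors under alternatives, 721 kept direction and side of the threshold, 43 lost it, 27 gained it and 15 changed sign, and the cause was not tested.

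From PFA-perfused to PBS-perfused cells the 5 receptors called became 3 with only the 2 groups compared and with no filter, and 3 to 6 with each library left out, 3 without PFA-perfused replicate 2 or either injury-activated library. Between unperfused and PBS-perfused cells 4 became 2 after quantile normalization and 2 to 6 with each library left out, 2 without unperfused replicate 2.

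No sign change was of a called difference. With trimmed mean scaling over genes of at least 1 FPKM, Fgfr2 changed sign between unperfused and PFA-perfused cells (0.12), and Fgfr1 (0.12) and Met (0.12) between unperfused and PBS-perfused cells. With the version over genes above 0, chosen after seeing the data, so did Fgfr2 (0.20), Fgfr1 (0.24) and Met (0.24), and also Egfr between unperfused and PBS-perfused cells (0.053) and Igf1r between PBS-perfused and PFA-perfused cells (0.072). That version split all calls into 3623 higher and 3071 lower, 4596 and 3846, and 3139 and 2854 in the 3 comparisons of uninjured cells, and 4999 and 3992 between injury-activated and PFA-perfused cells (3272 and 5925 unscaled). Quantile normalization split those 4 into 3134 and 4132, 3839 and 4662, 2736 and 3120, and 4325 and 4393, and changed the sign of Fgfr2 between unperfused and PFA-perfused cells (0.24). Without Rn45s and Malat1, Egfr changed sign between injury-activated and PFA-perfused cells (-0.16). With each library left out, Egfr ran from -0.011 to 0.43 in unperfused and from -0.11 to 0.33 in injury-activated against PFA-perfused cells, both lowest without PFA-perfused replicate 2. Fgfr3 ran from -0.30 (without PBS-perfused replicate 1) to 1.19 (without replicate 2) between unperfused and PBS-perfused cells, and from -0.14 (without replicate 2) to 1.34 (without replicate 1) between PBS-perfused and PFA-perfused cells. Fgfr1 ran from -0.74 (without replicate 1) to 0.090 (without replicate 2) between unperfused and PBS-perfused cells.

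Libraries of the same number share only that number (correlation of deviations -0.05 to 0.12). With the replicate block the receptors called were 5, 5, 4, 5, 6 and 8 in the 6 comparisons, the 1 changed call being Egfr between injury-activated and PBS-perfused cells (limma adjusted p = 0.035 against 0.056). The other genes, named by rule for the largest called change per list, kept direction and side of the threshold in 808 of 808 values. They were picked from these same data for large called differences without overlap. That count was therefore close to fixed by their choice and cannot be set beside the count for the receptors.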
